A study of Homo sapiens with 12 samples.

Results

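The genes described here were 40 human genes of the endoplasmic reticulum (ER) protein folding machinery and of the unfolded protein response, out of 60671 genes in the table. They were chosen by name, without a cut on measured values but with earlier results of these data known. By role they comprised 6 stress sensors and transcription factors, 13 chaperones and co-chaperones, 6 disulfide enzymes, 12 genes of ER-associated degradation and 3 genes of the translocon. RNA was sequenced from cells labelled Jurkat, a line from a human T cell acute lymphoblastic leukemia, in 4 groups of 3 libraries each. NC+DMSO and NC+VCR were control cells, labelled WT and described by the study as carrying a GFP vector. PTPN21+DMSO and PTPN21+VCR cells carried a FLAG-tagged copy of PTPN21, a protein tyrosine phosphatase, behind the viral SFFV promoter. VCR is vincristine, a drug that stops microtubules from assembling, and DMSO is its solvent. Treatment lasted 48 h in both VCR groups, and the sources used here do not give the dose of VCR. Nothing in the labels says whether the 3 libraries of a group came from separate cultures, so the p-values measure the spread between libraries, which may be technical.

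PTPN21 checked the labels. It was at 0.0767, 0.0212 and 0.0934 FPKM in NC+DMSO and 0.569, 0.160 and 0.372 in NC+VCR, against 7.93, 10.5 and 8.02 in PTPN21+DMSO and 6.53, 6.34 and 4.34 in PTPN21+VCR, so that every PTPN21 library lay above every NC library (adjusted p = 4.75e-05 without VCR and 0.000509 with it). FPKM divide fragments by gene length and by library size, so levels of different genes can be compared. The markers of a T cell did not bear out the labelled cell type. Of 10 T cell markers, CD247, CD5, CD28 and LCK were at 0 in all 12 libraries and 7 were below 1 FPKM in every library, while CD3D (61.8 to 139.7 FPKM) and TAL1 were present. Of 5 epithelial markers, EPCAM, KRT8, KRT18 and KRT19 were at or above 1 FPKM in every library. The cells are therefore called by their label only. Of 5 myeloid markers, LYZ and CD68 were at or above 1 FPKM in every library and 3 were below 1 in every library. The summed FPKM of the epithelial markers was 605 to 853 over all DMSO libraries and 1678 to 2218 over all VCR libraries. That of the myeloid markers was 297 to 477 and 127 to 255. These sums moved with VCR, as the ER genes below did, and their part in those results was not tested. B cell, plasma cell and fibroblast marker sums stayed at or under 1.84 in all libraries.

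Secreted and membrane proteins enter the ER through the translocon and fold there with the help of chaperones such as HSPA5 (BiP), of the lectins CALR and CANX, and of disulfide isomerases. When unfolded proteins build up, the sensors IRE1 (ERN1), PERK (EIF2AK3) and ATF6 start the unfolded protein response. IRE1 splices the XBP1 mRNA, PERK slows translation and favours ATF4, and ATF6 is cut to an active factor, and together they raise chaperones and the ER-associated degradation that removes misfolded proteins. Spliced and unspliced XBP1, protein and phosphorylation were not measured here, since the table gives one FPKM for each gene.

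ATF6 and XBP1 act on target genes through short promoter motifs, so the members' promoters were searched on both strands. The ER stress element (ERSE) was taken as CCAAT and CCACG with 9 bases of any kind between them, ERSE-II as ATTGG and CCACG with 1 base between them, and the core of the unfolded protein response element (UPRE) as TGACGTGG. RefSeq promoter sequences (GRCh38.p14, 250 bases before to 50 after the gene start) were matched for 37 of the 40 members in the table used here, all but DERL1, DERL3 and PDIA3. A gene was counted where any of its promoters held the motif. ERSE was found in 9 members (24.3% of those matched), namely CALR, CANX, CRELD2, ERO1B, HSP90B1, HSPA5, PDIA6, SERP1 and XBP1, and in 0.0916% of all 27305 genes with a promoter. ERSE-II was found in HERPUD1, HYOU1 and SDF2L1 (0.0696% of all genes) and the UPRE core in DNAJC10, HYOU1 and VCP (0.927%). A match describes letters in the window and is not a measured binding site.

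The 250 bases before the start follow for 7 members that carried a match and whose mRNA levels went different ways with VCR, written 5′ to 3′ on the strand of the gene with the fixed letters of the motifs in capitals. HSPA5 lies at chr9:125241344-125241593 on the minus strand, HSP90B1 at chr12:103930160-103930409 on the plus strand, CALR at chr19:12938359-12938608 on the plus strand, HYOU1 at chr11:119057206-119057455 on the minus strand, SDF2L1 at chr22:21642052-21642301 on the plus strand, XBP1 at chr22:28800570-28800819 on the minus strand and SERP1 at chr3:150546497-150546746 on the minus strand. In HYOU1 the UPRE core and one of the ERSE-II matches overlapped.
HSPA5: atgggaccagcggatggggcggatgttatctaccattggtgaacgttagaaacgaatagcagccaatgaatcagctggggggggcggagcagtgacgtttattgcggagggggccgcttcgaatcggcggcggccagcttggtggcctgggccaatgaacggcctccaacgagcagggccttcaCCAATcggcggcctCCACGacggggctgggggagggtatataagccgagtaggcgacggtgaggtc
HSP90B1: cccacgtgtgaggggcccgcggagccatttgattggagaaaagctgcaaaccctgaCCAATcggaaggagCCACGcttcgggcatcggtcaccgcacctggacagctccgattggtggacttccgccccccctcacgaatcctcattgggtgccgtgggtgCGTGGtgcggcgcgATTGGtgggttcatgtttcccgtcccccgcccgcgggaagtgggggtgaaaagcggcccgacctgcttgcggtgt
CALR: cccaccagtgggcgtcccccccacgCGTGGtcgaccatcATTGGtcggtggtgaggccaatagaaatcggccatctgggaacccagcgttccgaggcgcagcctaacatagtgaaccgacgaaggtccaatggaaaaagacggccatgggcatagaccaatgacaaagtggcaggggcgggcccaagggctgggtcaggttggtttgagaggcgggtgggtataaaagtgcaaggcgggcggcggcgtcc
HYOU1: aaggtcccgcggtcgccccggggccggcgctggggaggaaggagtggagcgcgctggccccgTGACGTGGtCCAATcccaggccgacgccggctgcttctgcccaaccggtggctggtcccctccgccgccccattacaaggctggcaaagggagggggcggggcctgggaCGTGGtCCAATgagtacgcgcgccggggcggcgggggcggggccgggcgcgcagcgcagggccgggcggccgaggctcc
SDF2L1: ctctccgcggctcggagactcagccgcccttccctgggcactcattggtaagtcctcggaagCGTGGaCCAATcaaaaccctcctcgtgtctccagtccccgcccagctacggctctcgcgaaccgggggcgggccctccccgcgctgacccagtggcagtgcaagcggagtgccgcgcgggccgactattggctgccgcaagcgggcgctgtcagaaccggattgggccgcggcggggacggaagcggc
XBP1: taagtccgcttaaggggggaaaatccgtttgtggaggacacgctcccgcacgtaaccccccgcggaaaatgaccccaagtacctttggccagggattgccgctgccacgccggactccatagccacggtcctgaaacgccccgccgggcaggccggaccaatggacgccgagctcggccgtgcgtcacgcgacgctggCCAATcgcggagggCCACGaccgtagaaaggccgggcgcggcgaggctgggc
SERP1: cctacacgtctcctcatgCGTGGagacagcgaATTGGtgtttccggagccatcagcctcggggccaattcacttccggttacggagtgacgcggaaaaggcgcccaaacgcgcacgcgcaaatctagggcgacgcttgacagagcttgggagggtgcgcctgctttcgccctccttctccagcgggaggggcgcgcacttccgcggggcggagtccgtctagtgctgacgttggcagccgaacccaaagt

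Levels spread widely within the module. HSP90B1, CALR and HSPA5 together took 50.7% to 59.8% of the summed FPKM of the members in each library. At the other end ERN1, which encodes IRE1, lay at 1.01 to 2.51 FPKM, and DERL3, a derlin of ER-associated degradation, lay at 0 to 0.458 FPKM and was listed at 0 in all NC+VCR libraries. DERL3 had a mean below 1 FPKM and was not tested, so that 39 members entered the tests with limma on log2(FPKM + 1), a scale that understates changes of low genes. The summed FPKM of all members was 4411 to 4771 in NC+DMSO, 5181 to 5337 in PTPN21+DMSO, 3679 to 3907 in NC+VCR and 3482 to 3599 in PTPN21+VCR. In these bulk libraries fewer cells of a type and less RNA per cell cannot be told apart.

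The first comparison asked how control cells answered VCR. In NC+VCR against NC+DMSO, 4 of 39 members rose and 12 fell at an adjusted p under 0.05 (limma, Benjamini-Hochberg over 11591 genes). Over all genes tested, 7.91% rose and 28.3% fell. The median log2 fold change was -0.23 over the members and -0.36 over all genes. The members that rose were the sensor EIF2AK3, the chaperone HSP90B1 and the translocon genes SEC61B and SERP1. Those that fell were CREB3L2, the chaperones and co-chaperones HYOU1, CALR, CANX, SIL1, DNAJB11, DNAJC3 and SDF2L1, the disulfide isomerases PDIA4 and PDIA6, the derlin DERL1 and the translocon pore SEC61A1. The scale of the libraries matters for this split, because median ratio scaling moved the median of all genes from -0.36 to -0.04 and the share of rises among all called genes from 21.9% to 55.8%. Under that scaling 9 members rose and 9 fell, as did 1717 and 1361 of all 11591 genes. Relative to the median of all genes, the log2 fold changes were -1.23 for PDIA4, -0.75 for CALR, -0.07 for DNAJB11, 0.35 for HSPA5 and 1.49 for SERP1. Of the 16 calls, 11 held in every alternative in which they were tested, out of 10 other settings and 12 fits that each left out 1 library.

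PTPN21 cells answered VCR in a comparison that shares no library with the first. In PTPN21+VCR against PTPN21+DMSO, 4 members rose and 10 fell, against 9.22% and 19.3% of all genes. Median log2 fold changes were -0.20 over the members and -0.17 over all genes, and median ratio scaling moved the latter to -0.01. It moved the share of rises among all called genes from 32.3% to 52.3%. Under that scaling 4 members rose and 7 fell, as did 1584 and 1446 of all 11591 genes. Relative to the median of all genes the log2 fold changes were -1.64 for PDIA4, -1.56 for CALR, -0.29 for HSPA5 and 1.24 for SERP1. Of the 14 calls, 9 held in every alternative. Between the 2 responses, 3 rising members were shared (EIF2AK3, SEC61B and SERP1), 75% of the rises in either. Shared falls numbered 7 (HYOU1, CALR, SIL1, DNAJB11, SDF2L1, PDIA4 and PDIA6), which is 58.3% of the falls in NC cells and 70.0% of those in PTPN21 cells. Shared calls were not counted over all genes, so these shares are not read as a trait of the members. HSP90B1, CREB3L2, CANX, DNAJC3, DERL1 and SEC61A1 passed the test only in NC cells, and EDEM1, HSPA5, MANF and OS9 only in PTPN21 cells. That is no test of a difference between the responses, which follows with the interaction.

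**Figure D1:**
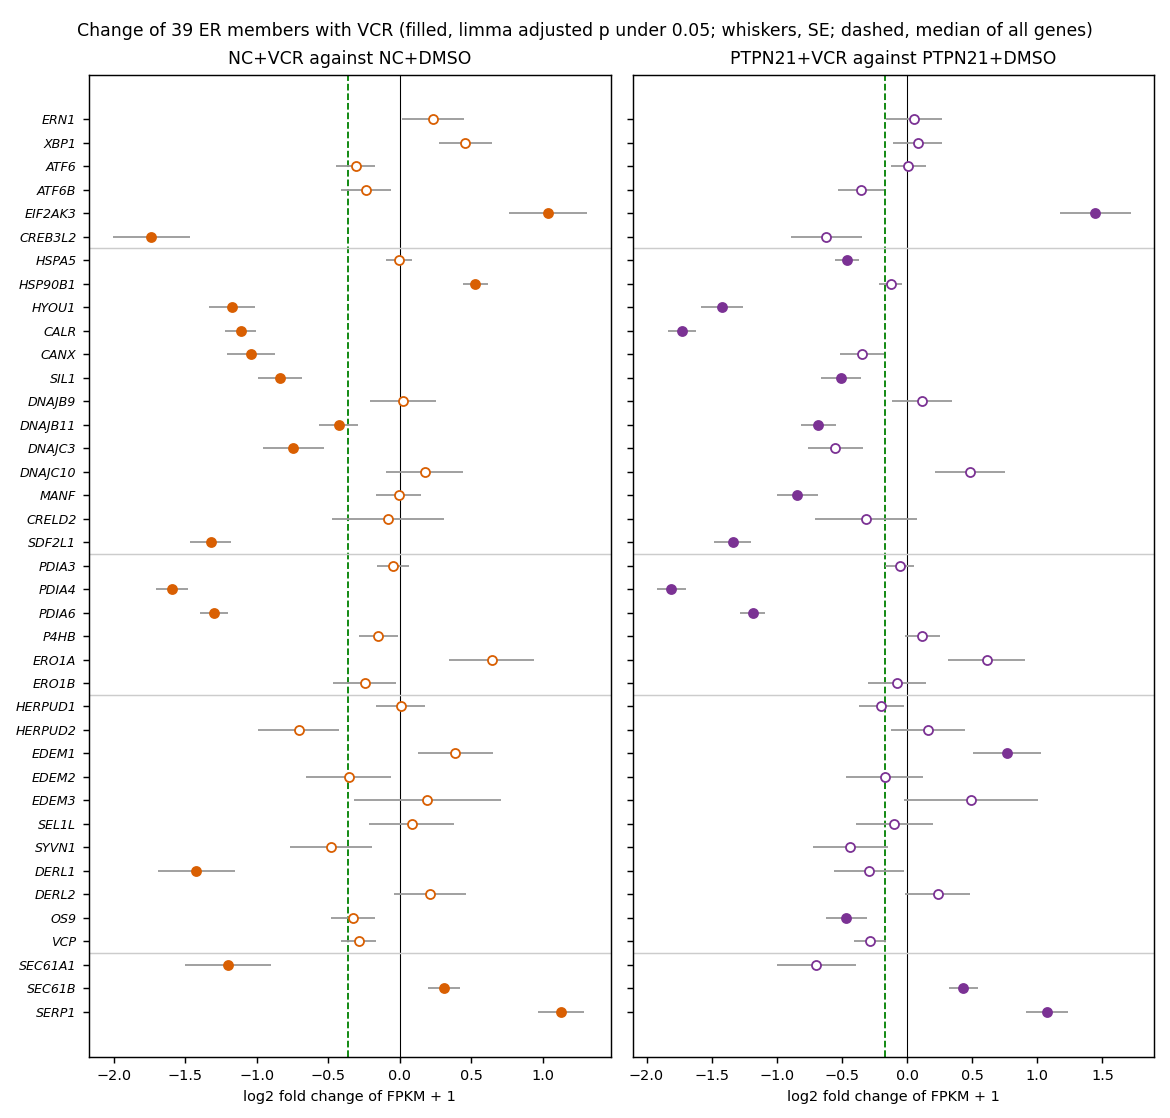
Log2 fold change of FPKM + 1 with VCR for the 39 tested members in NC cells (left) and PTPN21 cells (right), grouped by role with grey lines between the roles. Points are fitted values with SE whiskers from 3 libraries a group, filled where the limma adjusted p was under 0.05, and the dashed line is the median of all genes (-0.36 and -0.17). PDIA4, PDIA6, CALR, HYOU1 and SDF2L1 lie far to the left in both panels and EIF2AK3 and SERP1 far to the right.

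Among the sensors, EIF2AK3, the kinase PERK that phosphorylates the translation factor eIF2α, was raised in both VCR groups. It was at 5.23, 2.80 and 5.97 FPKM in NC+DMSO and 10.3, 10.2 and 10.2 in NC+VCR. In PTPN21+DMSO it was at 1.39, 3.20 and 2.34 FPKM and in PTPN21+VCR at 9.60, 7.99 and 6.09. All VCR libraries lay above all DMSO libraries, and the log2 fold changes were 1.04 (SE 0.27, adjusted p = 0.0117) in NC cells and 1.44 (SE 0.27, adjusted p = 0.00228) in PTPN21 cells. ERN1 stayed low, at 1.56, 1.01 and 1.60 FPKM in NC+DMSO, 1.49, 1.82 and 1.49 in PTPN21+DMSO, 1.34, 1.63 and 2.51 in NC+VCR and 1.57, 1.49 and 2.04 in PTPN21+VCR, with overlapping groups. ATF6, the membrane-bound factor that is cut under stress, was at 12.95, 11.9 and 12.1 FPKM in NC+DMSO, 10.9, 11.2 and 11.95 in PTPN21+DMSO, 10.1, 8.99 and 10.2 in NC+VCR and 11.3, 11.7 and 11.3 in PTPN21+VCR. The ATF6 libraries of NC+VCR were the lowest of the 4 groups, and ATF6 passed no test. Its relative ATF6B lay at 9.02 to 22.5 FPKM and passed no test either.

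XBP1, the factor whose mRNA IRE1 splices, was at 41.1, 52.9 and 78.5 FPKM in NC+DMSO and 74.6, 81.4 and 74.1 in NC+VCR. It was at 108, 112 and 123 FPKM in PTPN21+DMSO and 108, 128 and 128 in PTPN21+VCR. Both PTPN21 groups lay above both NC groups with no overlap, while DMSO and VCR libraries overlapped within each. The log2 fold change of XBP1 with VCR in NC cells was 0.46 (SE 0.19, adjusted p = 0.0738). CREB3L2, a factor of the same kind as ATF6 that drives secretory pathway genes, was at 4.31, 4.003 and 5.49 FPKM in NC+DMSO and 0.944, 0.266 and 0.892 in NC+VCR, and at 6.76, 5.68 and 5.98 in PTPN21+DMSO and 4.95, 4.37 and 2.13 in PTPN21+VCR. NC+VCR stood below every other library, with a log2 fold change of -1.74 (SE 0.27, adjusted p = 0.000576) against NC+DMSO and -0.62 (SE 0.27, adjusted p = 0.107) for the response of PTPN21 cells. These are low levels, at which the scale compresses the change.

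The most abundant chaperones moved apart. HSP90B1, the ER member of the HSP90 family (GRP94), was at 868, 1020.5 and 1011 FPKM in NC+DMSO and 1401, 1409 and 1360.2 in NC+VCR, a log2 fold change of 0.53 (SE 0.09, adjusted p = 0.000908). It was at 1323, 1279 and 1308 in PTPN21+DMSO and 1223, 1123 and 1246 in PTPN21+VCR, a log2 fold change of -0.12 (SE 0.09, adjusted p = 0.322). NC+VCR libraries lay above all NC+DMSO libraries, and PTPN21+VCR libraries lay below all PTPN21+DMSO libraries. Under quantile normalization the rise in NC cells shrank to 0.16 with an adjusted p of 0.37, and it passed in 21 of 22 alternatives. HSPA5, the HSP70 of the ER that also holds the sensors inactive, was at 397, 404 and 403 FPKM in NC+DMSO and 445, 371 and 384 in NC+VCR. Its NC groups overlapped, with a log2 fold change of -0.01 (SE 0.09, adjusted p = 0.952) and a 95% interval of -0.21 to 0.19, which median ratio scaling turned into a rise of 0.38 with an adjusted p of 0.0158. In PTPN21 cells HSPA5 fell from 479, 528 and 507 to 363, 368 and 369 FPKM without overlap, a log2 fold change of -0.46 (SE 0.09, adjusted p = 0.00297).

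CALR, the soluble lectin calreticulin, showed a larger fall. It was at 987, 1083 and 855 FPKM in NC+DMSO and 492, 399.6 and 458 in NC+VCR. In PTPN21+DMSO it was at 1166, 1184 and 1257 and in PTPN21+VCR at 357, 379 and 352. All VCR libraries lay below all DMSO libraries, and the log2 fold changes were -1.11 (SE 0.11, adjusted p = 2.62e-05) in NC cells and -1.73 (SE 0.11, adjusted p = 1.27e-06) in PTPN21 cells. CANX, the membrane-bound lectin calnexin, was at 293, 226 and 333 FPKM in NC+DMSO and 126, 144 and 138 in NC+VCR, a log2 fold change of -1.04 (SE 0.17, adjusted p = 0.000772). Its PTPN21 groups overlapped, at 137, 195 and 173 without VCR and 138, 148 and 111 with it.

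HYOU1, a large HSP70 relative that exchanges the nucleotide of HSPA5, was at 45.5, 56.2 and 72.3 FPKM in NC+DMSO and 27.1, 23.8 and 23.4 in NC+VCR. It fell from 54.5, 49.1 and 59.1 FPKM in PTPN21+DMSO to 20.97, 18.03 and 19.9 in PTPN21+VCR, and no VCR library reached the lowest DMSO library. The log2 fold changes were -1.17 (SE 0.16, adjusted p = 0.000273) and -1.42 (SE 0.16, adjusted p = 8.29e-05). SIL1, the other exchange factor of HSPA5, fell as well, from 30.3 ± 1.51 to 16.7 ± 2.68 FPKM in NC cells and from 30.8 ± 4.61 to 21.2 ± 1.71 in PTPN21 cells (mean ± SD, n = 3), with log2 fold changes of -0.84 and -0.51 (adjusted p = 0.0016 and 0.0273). SIL1 shares exon bases with MATR3 and SNHG4 on the opposite strand, and the strand setting of the counting is not given. The highest mean among genes overlapping SIL1 was 38.8 FPKM, against 24.8 for SIL1 itself. SDF2L1, a partner of the ER DNAJ proteins, was at 222, 288 and 217 FPKM in NC+DMSO, 94.4, 80.9 and 114 in NC+VCR, 392, 333 and 353 in PTPN21+DMSO and 139, 145 and 140.4 in PTPN21+VCR. With VCR its libraries lay below all DMSO libraries, with log2 fold changes of -1.32 (SE 0.14, adjusted p = 5.24e-05) in NC and -1.34 (SE 0.14, adjusted p = 4.7e-05) in PTPN21 cells.

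The J-domain co-chaperones, which deliver clients to HSPA5, answered unequally. DNAJB11 fell from 204 ± 27.7 to 151 ± 12.7 FPKM in NC cells (log2 fold change -0.43, SE 0.14, adjusted p = 0.028, past the threshold in 13 of 22 alternatives) and from 225 ± 36.4 to 139 ± 6.59 in PTPN21 cells (log2 fold change -0.68, SE 0.14, adjusted p = 0.00304). DNAJC3, an inhibitor of PERK, fell in NC cells, from 8.35 ± 1.65 to 4.53 ± 0.327 FPKM (log2 fold change -0.74, SE 0.21, adjusted p = 0.0176). Its PTPN21 means were 6.55 ± 0.226 and 4.26 ± 1.28, which did not pass. DNAJB9, a target of XBP1 that represses IRE1, was at 7.12, 5.71 and 6.54 FPKM in NC+DMSO, 3.87, 6.05 and 6.20 in PTPN21+DMSO, 9.40, 5.76 and 5.13 in NC+VCR and 5.93, 5.85 and 5.65 in PTPN21+VCR, and every pair of groups compared overlapped. MANF, a small secreted stress protein, was at 75.1, 83.3 and 62.4 FPKM in NC+DMSO and 67.8, 93.9 and 60.5 in NC+VCR, which overlapped. From PTPN21+DMSO to PTPN21+VCR it fell from 116, 118 and 121 to 67.1, 61.4 and 68.4 without overlap (log2 fold change -0.84, SE 0.16, adjusted p = 0.00218). CRELD2 passed no test, with a range of 1.40 to 9.08 FPKM that included 1 NC+VCR library well under the others.

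Of the disulfide isomerases, PDIA4 and PDIA6 fell in both kinds of cell and the others did not pass. PDIA4 was at 170.2, 182 and 174 FPKM in NC+DMSO and 66.2, 51.4 and 56.1 in NC+VCR. It went from 216, 227 and 215 in PTPN21+DMSO to 62.9, 66.4 and 56.7 in PTPN21+VCR. No VCR library reached the DMSO range, and the log2 fold changes were -1.59 (SE 0.11, adjusted p = 2.56e-06) in NC cells, the lowest adjusted p of the members there, and -1.81 (SE 0.11, adjusted p = 1.27e-06) in PTPN21 cells. PDIA6, which can attenuate IRE1, was at 228, 209.6 and 236 FPKM in NC+DMSO, 98.99, 83.9 and 89.2 in NC+VCR, 197, 215 and 204 in PTPN21+DMSO and 90.5, 89.3 and 89.5 in PTPN21+VCR. It also separated by drug, with log2 fold changes of -1.30 (SE 0.10, adjusted p = 3.79e-06) and -1.18 (SE 0.10, adjusted p = 6.62e-06). PDIA3, the isomerase that works with CALR and CANX on glycoproteins, stayed at 97.1 to 126 FPKM over all libraries and passed no test, and its pseudogene PDIA3P1 was listed at a mean of 12.6 FPKM. P4HB, the classical disulfide isomerase, lay at 215 to 362 FPKM, and the oxidases ERO1A and ERO1B, which reoxidise the isomerases, at 6.03 to 19.9 and 1.79 to 3.54 FPKM. None of these passed a test.

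**Figure D2:**
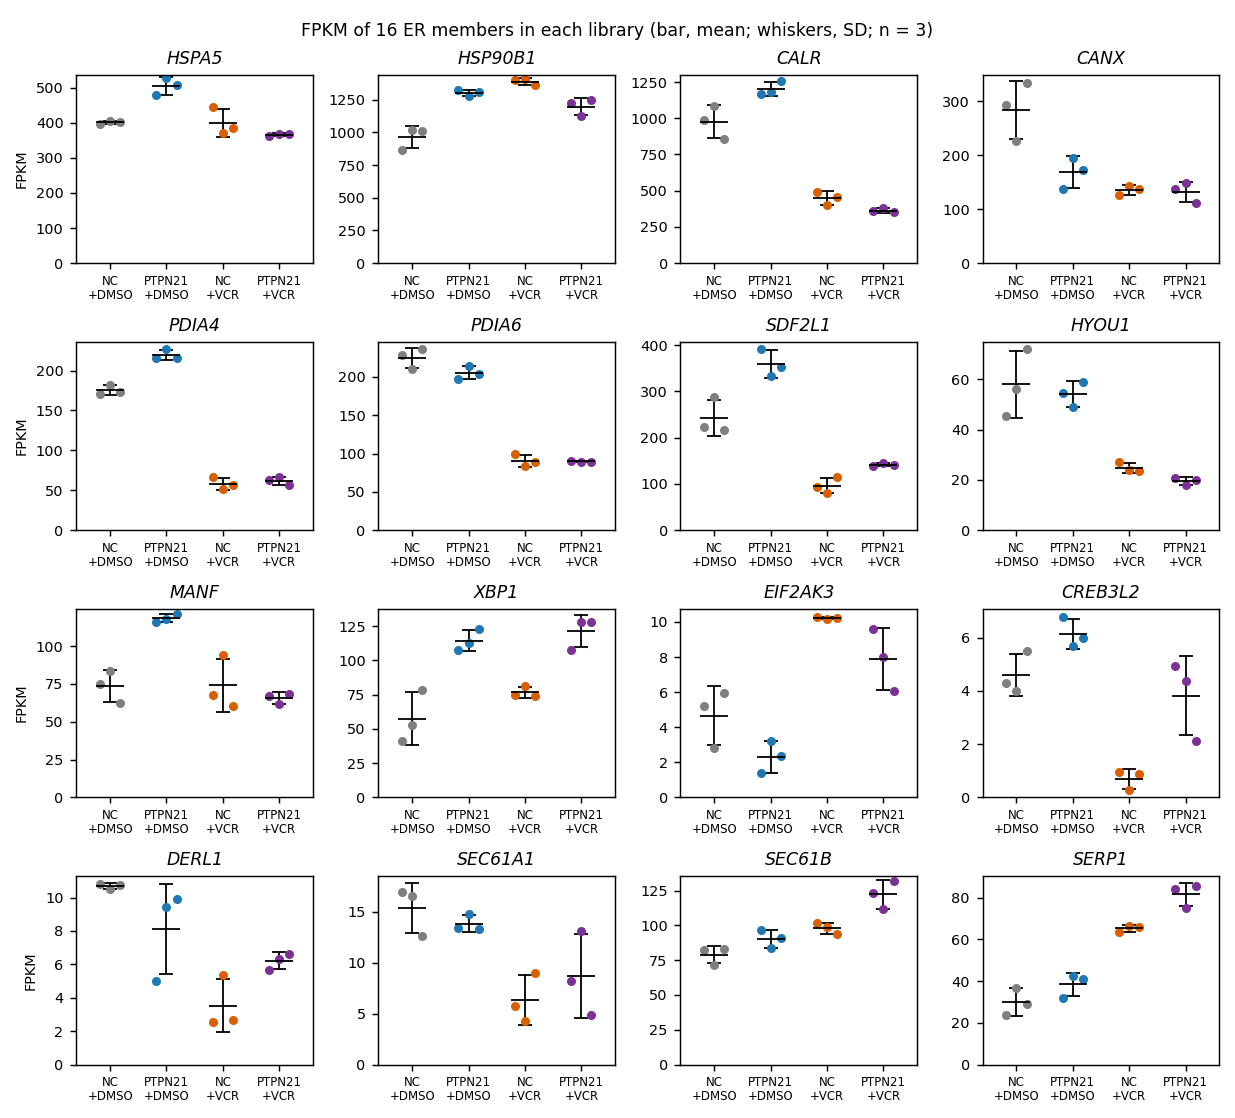
FPKM of 16 members in each of the 12 libraries, one panel a gene with its own axis from 0. Points are libraries, horizontal bars means and whiskers SD of 3 libraries. CALR, PDIA4, PDIA6, SDF2L1 and HYOU1 separate by drug, XBP1 separates by construct, and NC+VCR stands alone at the bottom for CREB3L2.

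Ratios within a library do not depend on its scaling, and show how unevenly the abundant members moved. These pairs were chosen after their values were seen, so they are given with no test. HSP90B1 over CALR was 0.880 to 1.18 in NC+DMSO and 1.04 to 1.13 in PTPN21+DMSO, against 2.85 to 3.53 in NC+VCR and 2.96 to 3.54 in PTPN21+VCR. HSPA5 over PDIA4 was 2.22 to 2.33 and 2.22 to 2.35 in the same DMSO groups, and 6.73 to 7.23 and 5.54 to 6.51 in the VCR groups. PDIA3 over PDIA6 went from 0.412 to 0.587 over the DMSO libraries to 0.986 to 1.27 over the VCR libraries. Within each of these pairs the DMSO and VCR ranges did not overlap. For XBP1 over ATF6, another pair that was computed, they did. That ratio was 3.17 to 6.48 in NC+DMSO and 9.84 to 10.3 in PTPN21+DMSO, against 7.26 to 9.06 in NC+VCR and 9.49 to 11.3 in PTPN21+VCR.

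**Figure D3:**
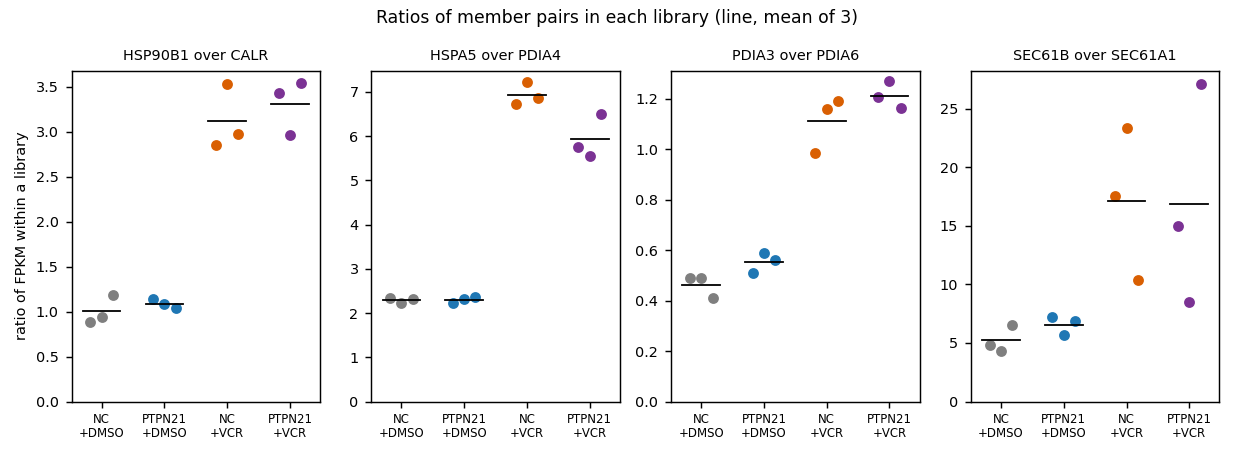
Ratios of the FPKM of 4 pairs of members within each library, by group, on axes from 0. Points are libraries and lines the means of 3. In all 4 panels the 6 VCR libraries lie above the 6 DMSO libraries, with the widest scatter for SEC61B over SEC61A1 (8.53 to 27.1 with VCR).

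Genes of ER-associated degradation were mostly low and few passed. DERL1, a channel protein, was at 10.8, 10.5 and 10.8 FPKM in NC+DMSO and 2.56, 5.39 and 2.65 in NC+VCR, a log2 fold change of -1.42 (SE 0.27, adjusted p = 0.00192). It was at 5.01, 9.46 and 9.91 in PTPN21+DMSO and 5.69, 6.33 and 6.65 in PTPN21+VCR, which overlapped. DERL1 shares exon bases with TBC1D31 on the opposite strand (mean 29.04 FPKM). SEL1L, the adaptor of the ubiquitin ligase SYVN1 (HRD1), was at 6.59, 4.70 and 8.65 FPKM in NC+DMSO, 4.16, 4.21 and 6.05 in PTPN21+DMSO, 4.27, 7.21 and 10.5 in NC+VCR and 5.22, 4.68 and 3.37 in PTPN21+VCR, with overlap throughout the VCR responses. SYVN1 itself lay at 0.952 to 4.13 FPKM, and since it shares exon bases with the far more abundant FAU (mean 799.6 FPKM) its level is uncertain. HERPUD1, a stress-induced scaffold of the same complex, was at 15.1, 23.3 and 19.9 FPKM in NC+DMSO, 17.2, 23.6 and 20.4 in PTPN21+DMSO, 18.96, 17.98 and 20.7 in NC+VCR and 17.4, 17.5 and 17.6 in PTPN21+VCR. Its DMSO and VCR libraries overlapped in both kinds of cell. With VCR its PTPN21 libraries all lay below the NC libraries, and it passed no test.

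EDEM1, a mannosidase-like protein that marks glycoproteins for degradation, passed in PTPN21 cells, from 2.83 ± 0.929 to 5.41 ± 0.689 FPKM (log2 fold change 0.77, SE 0.26, adjusted p = 0.0437), and that call held in 11 of 21 alternatives. OS9, the lectin that reads that mark, fell from 129 ± 10.5 to 92.8 ± 5.93 FPKM (log2 fold change -0.47, SE 0.16, adjusted p = 0.0411) and held in 11 of 22. In NC cells the means were 3.93 ± 1.46 and 5.34 ± 1.01 for EDEM1 and 142 ± 15.7 and 115 ± 24.5 for OS9, and neither passed. HERPUD2, EDEM2, EDEM3, DERL2 and VCP, the ATPase that pulls proteins out of the membrane, passed no test. Of these VCP was the most abundant, at 31.6 to 46.2 FPKM.

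In the translocon the subunits went opposite ways. SEC61A1, the pore itself, was at 16.99, 16.6 and 12.6 FPKM in NC+DMSO and 5.77, 4.23 and 8.98 in NC+VCR (log2 fold change -1.20, SE 0.30, adjusted p = 0.00933), and at 13.4, 14.8 and 13.3 and 8.23, 13.1 and 4.87 in the PTPN21 groups without and with VCR. It shares exon bases with RUVBL1 on the opposite strand, which had a mean of 109 FPKM. SEC61B, the small beta subunit, rose from 78.9 ± 6.13 to 97.9 ± 4.05 FPKM in NC cells (log2 fold change 0.31, SE 0.11, adjusted p = 0.0432, held in 11 of 22 alternatives) and from 90.3 ± 6.58 to 122 ± 10.2 in PTPN21 cells (log2 fold change 0.43, SE 0.11, adjusted p = 0.0114). SERP1, a stress-associated protein that steadies membrane proteins at the translocon, lay at 23.7 to 36.9 FPKM in NC+DMSO and 63.5 to 66.4 in NC+VCR (log2 fold change 1.13, SE 0.16, adjusted p = 0.000331). In PTPN21 cells it lay at 32.03 to 42.3 FPKM without VCR and 75.1 to 85.6 with it (log2 fold change 1.07, SE 0.16, adjusted p = 0.000509). All 6 SERP1 libraries with VCR lay above all 6 without. SERP1 shares exon bases with EIF2A and SELENOT on the opposite strand. The higher of their means was 67.1 FPKM, against 53.8 for SERP1 itself, so its level is uncertain.

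The printed promoters can be set beside these values. Members with ERSE included the rising HSP90B1 and SERP1 and the falling CALR, CANX and PDIA6 in NC cells. By count, 2 of the 9 rose and 3 fell in NC cells and 1 rose and 3 fell in PTPN21 cells, against 2 and 8, and 3 and 7, of the 28 matched members without it. Over all genes tested, 7.91% rose and 28.3% fell in NC cells and 9.22% and 19.3% in PTPN21 cells. The median log2 fold changes were -0.08 with ERSE and -0.26 without it in NC cells, and -0.31 and -0.18 in PTPN21 cells. HYOU1 and SDF2L1, both with ERSE-II, fell in both responses, and HERPUD1, with the same motif, passed no test.

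The next comparison, PTPN21+VCR against NC+VCR, was the one the study described for its sequencing. Of the members, 1 of 39 was higher with PTPN21 and none was lower (limma), against 1.00% and 0.820% of all genes. An unadjusted p under 0.05 was found for 11 of 39 members, against 17.1% of all genes. The median log2 difference was -0.01 over the members and 0.03 over all genes. CREB3L2 was the member that passed, with the values given above, at a log2 difference of 1.47 (SE 0.27, adjusted p = 0.0221). The call held in 15 of 21 alternatives, with an adjusted p of 0.0180 to 0.0917 over them, and was lost with no filter, with the replicate block, with the 2 groups alone and without NC+VCR replicate 2, PTPN21+VCR replicate 1 or PTPN21+VCR replicate 2. XBP1 lay higher in every PTPN21+VCR library, but its log2 difference of 0.65 (SE 0.19, adjusted p = 0.0971) did not pass, nor did that of SDF2L1 at 0.56 (SE 0.14, adjusted p = 0.0684). CALR was lower in every PTPN21+VCR library and EIF2AK3 likewise, and neither passed.

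PTPN21 was also compared without drug. In PTPN21+DMSO against NC+DMSO, 4 members were higher and 2 lower, against 2.65% and 3.69% of all genes, and the median log2 differences were 0.01 over the members and -0.14 over all genes. This comparison shares NC+DMSO with the VCR response of NC cells and PTPN21+DMSO with that of PTPN21 cells. XBP1 was higher by 1.03 (SE 0.19, adjusted p = 0.0139), MANF by 0.69 (SE 0.16, adjusted p = 0.0308), SDF2L1 by 0.57 (SE 0.14, adjusted p = 0.0376) and HSP90B1 by 0.43 (SE 0.09, adjusted p = 0.0217) on the log2 scale. For all 4 genes the PTPN21+DMSO libraries lay above the NC+DMSO libraries. CANX was lower, at a log2 difference of -0.75 (SE 0.17, adjusted p = 0.03). DNAJC10, a reductase with a J domain, was at 19.01, 14.1 and 8.75 FPKM in NC+DMSO and 5.37, 6.03 and 5.64 in PTPN21+DMSO (log2 fold change -1.10, SE 0.27, adjusted p = 0.0367), and at 16.7, 15.3 and 13.7 in NC+VCR and 6.21, 12.2 and 7.48 in PTPN21+VCR. HSPA5 lay higher in every PTPN21+DMSO library, at 0.33 (SE 0.09, adjusted p = 0.0516), without passing.

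None of these 6 calls held in every alternative. XBP1 held in 18 of 22, MANF, HSP90B1 and CANX in 13 of 22 each, DNAJC10 in 11 of 22 and SDF2L1 in 9 of 22. With the 2 DMSO groups alone, or without PTPN21+DMSO replicate 1 or replicate 3, no member passed in either direction. Median ratio scaling gave 6 higher and 0 lower members, and 423 higher and 153 lower of all 11591 genes. It moved the median of all genes from -0.14 to 0.01 and the share of higher genes among all called from 41.8% to 73.4%.

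**Figure D4:**
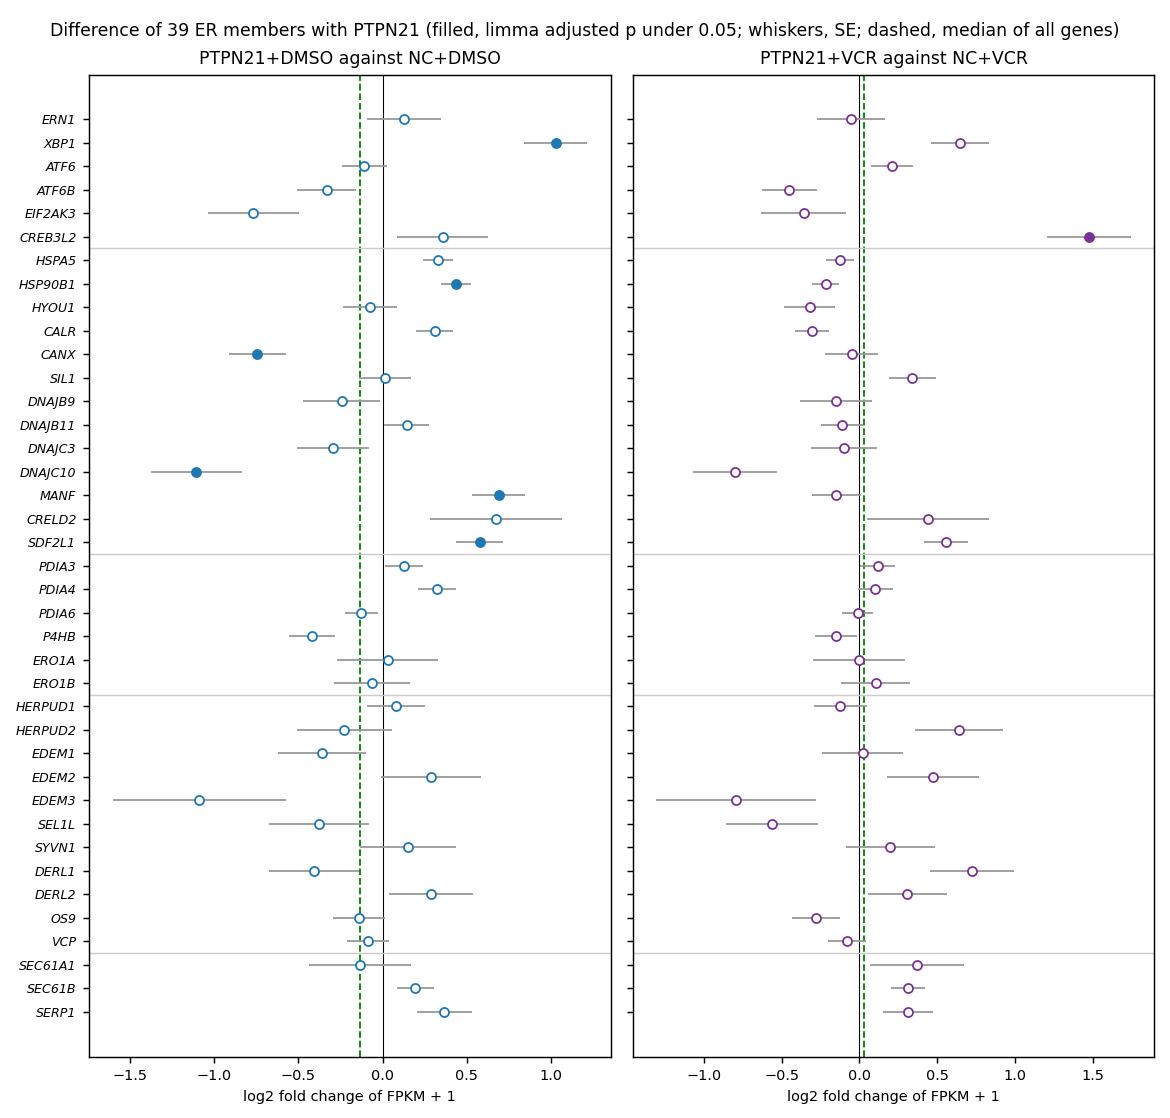
Log2 difference of FPKM + 1 with PTPN21 for the 39 tested members, without VCR (left) and with VCR (right), drawn like the plot of changes with VCR. Filled points passed at a limma adjusted p under 0.05, which were 6 without VCR and CREB3L2 with VCR, and the dashed lines are the medians of all genes (-0.14 and 0.03). XBP1 and SDF2L1 lie to the right in both panels.

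Whether VCR acted differently in PTPN21 and NC cells was tested with the interaction. No member passed in either direction (limma, 0 of 39), and of all genes 0.0259% passed as higher and 0.104% as lower. At an unadjusted p under 0.05 there were 7 of 39 members, against 14.0% of all genes. HSP90B1 came nearest, with an interaction of -0.65 (SE 0.12, adjusted p = 0.0671) and a 95% interval of -0.92 to -0.38. CALR gave -0.61 (SE 0.15, adjusted p = 0.14), MANF -0.84 (SE 0.22, adjusted p = 0.169) and HSPA5 -0.45 (SE 0.13, adjusted p = 0.189). Positive values were 1.13 for DERL1 (SE 0.38, adjusted p = 0.235), 1.12 for CREB3L2 (SE 0.38, adjusted p = 0.24) and 0.70 for CANX (SE 0.24, adjusted p = 0.246). Members that passed in one kind of cell and not in the other were therefore not shown to differ between them.

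Other genes of the pathway were counted from lists. The PERK and ATF4 arm held 13 genes, of which 2 rose and 3 fell in NC+VCR against NC+DMSO and 3 rose and 5 fell in PTPN21+VCR against PTPN21+DMSO. That is 15.4% and 23.1% in NC cells, against 7.91% and 28.3% of all genes tested, and 23.1% and 38.5% in PTPN21 cells, against 9.22% and 19.3%. ATF4, the factor translated when eIF2α is phosphorylated, was at 26.3, 302 and 246 FPKM in NC+DMSO, 29.8, 32.7 and 329.6 in PTPN21+DMSO, 314, 312 and 336 in NC+VCR and 26.04, 26.5 and 29.1 in PTPN21+VCR. It therefore stood at either a low or a high level within both DMSO groups. With VCR every PTPN21 library lay below every NC library, at a log2 difference of -3.51, the lowest of all genes tested. ATF4 passed no test, in a model whose single estimate of the spread took in the mixed DMSO groups. That result does not show that ATF4 was unchanged. DDIT3 (CHOP), which ATF4 induces, was at 181, 268 and 395 FPKM in NC+DMSO, 279, 239 and 266 in PTPN21+DMSO, 282, 206 and 834 in NC+VCR and 299, 333 and 448 in PTPN21+VCR, with 1 high NC+VCR library and no call. PPP1R15A (GADD34), which restores translation, was at 326, 399 and 434 FPKM in NC+DMSO, 311, 323 and 312 in PTPN21+DMSO, 418, 349.8 and 372 in NC+VCR and 215, 186 and 199 in PTPN21+VCR. It fell with VCR in PTPN21 cells and was lower in PTPN21+VCR than in NC+VCR. TRIB3, an inhibitor of ATF4, was at 6.44 to 10.9 FPKM in NC+DMSO, 13.04 to 14.8 in PTPN21+DMSO, 8.20 to 9.07 in NC+VCR and 5.15 to 9.41 in PTPN21+VCR and fell with VCR in PTPN21 cells. ATF3, a stress-induced repressor, rose with VCR in both kinds of cell. It lay at 39.2 to 49.4 FPKM in NC+DMSO and 88.7 to 101 in NC+VCR, and at 21.1 to 26.7 and 46.1 to 54.2 in the PTPN21 groups without and with VCR. NFE2L2 rose and CHAC1, a glutathione-degrading enzyme, fell in both. ATF3 was lower with PTPN21 under both treatments.

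Of 23 other genes of the translocon, the signal peptidase and the oligosaccharyltransferase, which attaches N-glycans, 1 rose and 9 fell in NC cells and 0 rose and 5 fell in PTPN21 cells (limma). The falls made up 39.1% of the list in NC cells and 21.7% in PTPN21 cells, against 28.3% and 19.3% of all genes. The rises made up 4.35% and 0%, against 7.91% and 9.22% of all genes. The oligosaccharyltransferase subunit STT3A fell in both, and lay at 83.5 to 118 FPKM in NC+DMSO, 42.2 to 62.8 in NC+VCR, 72.5 to 108 in PTPN21+DMSO and 47.8 to 56.3 in PTPN21+VCR. DDOST and SPCS1 were the other large falls in NC cells, and SEC11C and SRPRB those in PTPN21 cells. SRPRB fell in NC cells as well, by a log2 fold change of -0.76. Of 20 other folding enzymes, 4 rose and 4 fell in NC cells and 2 rose and 3 fell in PTPN21 cells, where 7.91% and 28.3%, and 9.22% and 19.3%, of all genes did. FKBP2, a prolyl isomerase, fell in both. FKBP2 lay at 32.1 to 58.3 FPKM in NC+DMSO, 15.4 to 35.6 in NC+VCR, 55.96 to 64.2 in PTPN21+DMSO and 18.2 to 22.8 in PTPN21+VCR. TXNDC5 rose and TMX1 fell in NC cells. SELENOF rose and TMX4 fell in both kinds of cell.

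Of 20 other degradation genes, 2 rose and 5 fell in NC cells and 1 rose and 5 fell in PTPN21 cells. The rises are 10% and 5% of the list, against 7.91% and 9.22% of all genes. The falls are 25% of the list in each, near the 28.3% and 19.3% of all genes. The membrane ubiquitin ligase RNF5 fell in both, and lay at 40.2 to 51.3 FPKM in NC+DMSO, 13.5 to 15.7 in NC+VCR, 42.2 to 48.1 in PTPN21+DMSO and 15.3 to 19.3 in PTPN21+VCR. ERLIN1 and ERLIN2 were the next largest falls in NC cells, and TMUB1 and UBE2J2 were large falls in PTPN21 cells. TMUB1 fell in NC cells as well, by a log2 fold change of -0.93. Of 11 tested genes that process or regulate the response, 1 rose (CREB3) and 0 fell in NC cells and none passed in PTPN21 cells (limma). Over all genes tested, 7.91% rose and 28.3% fell in NC cells and 9.22% and 19.3% in PTPN21 cells. An unadjusted p under 0.05 was found for 3 and 2 genes of this list, against 46.4% and 39.9% of all genes. With VCR, PPP1R15A and ATF3 were lower and DAD1 and SELENOF higher in PTPN21 than in NC cells, and no other gene of these lists passed. Without VCR, EIF2S1, SSR4, PRDX4, SELENOF and SELENOS were higher and ATF3, SEC63, SRPRA, STT3B, TMX1, UGGT1 and PTPN1 lower. By list, in the order above, 1 of 13, 1 of 23, 2 of 20, 1 of 20 and 0 of 11 were higher. Lower genes numbered 1, 3, 2, 0 and 1 in the same lists. With VCR, 2 of the 13 were lower, and 1 of the 23 and 1 of the 20 folding enzymes were higher. Over all genes, 2.65% were higher and 3.69% lower without VCR, and 1.00% and 0.820% with it.

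Many calls of these lists did not hold when 1 library was left out, in fits that were added after the data were seen. With VCR, 16 of the 31 calls in NC cells and 13 of the 24 in PTPN21 cells held in all 12 such fits. Of the 4 calls between PTPN21 and NC cells with VCR, those of PPP1R15A and ATF3 held, and of the 12 without VCR that of ATF3 alone. TXNDC5 was at 7.82, 35.04 and 35.4 FPKM in NC+DMSO and 56.5, 45.4 and 43.97 in NC+VCR, so that 1 NC+DMSO library was far under the others. Its log2 fold change of 1.12 (limma adjusted p = 0.0479) came to 0.45 without NC+DMSO replicate 1, and it passed in 3 of the 12 fits. In NC cells DDOST went from -1.42 to -0.82 without NC+VCR replicate 2 and CHAC1 from -1.34 to -0.79 without NC+VCR replicate 1. Both still passed there, and CHAC1 was lost without NC+DMSO replicate 3. Other genes named above were lost in at least 1 fit. In NC cells these were NFE2L2 (0.71 without NC+VCR replicate 1), SPCS1 (-0.62 without NC+VCR replicate 2) and FKBP2 (-0.62 without NC+DMSO replicate 2). Also lost there were CREB3 (0.54 without NC+DMSO replicate 3) and TMX4 (-0.63 without NC+VCR replicate 3), and TMUB1 without NC+DMSO replicate 1 or 3. In PTPN21 cells they were TRIB3 (-0.60 without PTPN21+VCR replicate 2), STT3A (-0.45 without PTPN21+DMSO replicate 1), TMX4 (-0.48 without PTPN21+VCR replicate 3) and UBE2J2 (-0.88 without PTPN21+VCR replicate 1).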

How the data were processed

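RNA-seq values of 12 libraries, 3 in each of 4 groups taken from the sample labels, were used. The authors deposited one table of FPKM for 60671 Ensembl genes, made by an external company. The submitters' processing notes name fastp, Bowtie2 and the mouse build mm10, although the identifiers are human and 96.3% of them are in GENCODE release 29 (GRCh38), used here for positions. Versions, counting program and strand setting are not given in the sources used here. Depth is not given either. Steps of FPKM times length in 8704 single-exon genes gave 22100000 to 39900000 fragments per library, but only 31.8% to 48.6% of low values lay within 0.1 of a whole step (20% by chance), so depth and the counting error of low genes stay uncertain.

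From the deposited FPKM, log2(FPKM + 1) was tested with limma 3.58.1 in R 4.3.3 with an intensity trend, in one model of 4 group means over all 12 libraries with 8 residual degrees of freedom, for the 11591 genes whose mean FPKM reached 1, with Benjamini-Hochberg adjustment over all of them and a threshold of 0.05. There were 5 comparisons, the interaction included. Values simulated for NC+VCR against NC+DMSO (11591 genes, 200 changed) gave 86% recovery at a log2 change of 2, 34% at 1 and 0.5% at 0.5. With more genes changed, as called here, the adjusted threshold is more lenient. With 3 libraries against 3 an exact permutation test cannot go below p = 0.1, so overlap of groups is only described. Values of every library are given for HSPA5, HSP90B1, CALR, DNAJB9, HERPUD1, XBP1, ERN1, ATF6, EIF2AK3 and SEL1L whatever they did, and in each comparison for the up to 6 members past the threshold with the largest change and no overlap. From the other lists, ATF4, DDIT3, PPP1R15A, TRIB3 and up to 3 genes per VCR comparison are named by size of change, and the genes past the threshold in the PTPN21 comparisons were named after their values were seen. The members and all lists were chosen with earlier results of these data known.

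The fits were repeated with other scalings (quantile normalization, median ratio, TPM), with a lower pseudocount (0.1), with the FPKM minimum dropped or raised to 5, without the trend, with robust moderation, with the 2 groups alone, with a replicate block and without each library in turn. Promoter motifs were searched with pandas 2.3.3 and numpy 2.4.6 in Python 3.11.15, and matplotlib 3.10.9 drew the plots. The result of 1 list of cell type markers is not reported here.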

Additional observations from a re-analysis of the deposited data

How the results depend on the processing

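Of the single-member log2 fold changes, 472 were recomputed under other settings and 576 without one library each. Direction and side of the threshold were kept in 406 and 505 of them, 57 and 62 lost the threshold, 6 and 7 gained it, and 3 and 2 changed direction, none of these a call of the report. HSPA5 in NC+VCR against NC+DMSO went to 0.384 with median ratio scaling, and without one library lay at -0.087 to 0.0442, the highest without NC+VCR replicate 2. HSP90B1 in PTPN21+VCR against PTPN21+DMSO went to 0.0709 with median ratio scaling, and CALR in PTPN21+DMSO against NC+DMSO to -0.142 with quantile normalization.

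Rising members of the NC response to VCR numbered 9 with median ratio scaling and 7 with quantile normalization in place of 4. Over all genes, 1717 and 1540 rose under these scalings in place of 917. Without one library, 3 to 5 members rose and 11 to 13 fell. In PTPN21+VCR against PTPN21+DMSO, 2 to 4 members rose without one library, the lowest without PTPN21+VCR replicate 3, and 8 to 10 fell. The 1 member higher in PTPN21+VCR against NC+VCR became 0 with no filter and with the replicate block, and 0 to 2 without one library. In PTPN21+DMSO against NC+DMSO the 4 higher members became 0 with no filter, 2 with TPM scaling, 1 without the trend, 1 with the replicate block and 0 with 2 groups alone, and the 2 lower members became 0 with no filter, median ratio scaling, no trend, the replicate block and 2 groups alone. Leaving out one library gave 0 to 6 higher and 0 to 3 lower, with 0 and 0 without PTPN21+DMSO replicate 1 or 3, 0 lower without NC+DMSO replicate 1, and 6 higher without NC+DMSO replicate 2 or NC+VCR replicate 2. TPM scaling and quantile normalization moved the share of higher genes among those called there to 22.0% and 54.5%. Over all genes there, 307 were higher in the main fit, 115 with no filter, 214 with TPM scaling and 32 with 2 groups alone. The lower genes numbered 428, 62, 758 and 11 in the same fits. The interaction gave 0 members under every alternative run. The cause of these shifts was not tested.

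Samples with the same replicate number did not deviate together (18 pairs, correlations of deviations -0.15 to 0.06), so the numbers are not read as pairs. With the replicate block, 3 members rose and 12 fell in NC cells with VCR and 3 and 9 in PTPN21 cells. Depth is uncertain, so what it limits among low members such as ERN1, ERO1B and HERPUD2 could not be stated. Overlapping genes and reads shared with pseudogenes such as PDIA3P1 could not be separated.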

Other observations

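A few low members rested on single libraries. EDEM3, a mannosidase-like protein of ER-associated degradation, was at 2.58, 14.0 and 2.52 FPKM in the NC+VCR libraries and at 0.841 to 6.81 in all others. CRELD2 was at 7.81, 1.40 and 7.81 FPKM in NC+VCR, and HERPUD2 at 2.48, 0.628 and 2.11. In each case the departing library was NC+VCR replicate 2, and DDOST, an oligosaccharyltransferase subunit, was at 21.8, 5.10 and 19.0 FPKM in the same 3 libraries. DERL2 in NC+VCR was at 5.82, 2.63 and 3.53 FPKM, and EDEM2 at 9.21, 3.07 and 3.56, where replicate 1 stood above the other libraries of its group. These values were noticed after the data were seen, and no test was made of them.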
